A study of Mus musculus with 23 samples.

Results

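Upf1 is an RNA helicase that is central to nonsense-mediated decay, the pathway that degrades mRNAs whose translation ends in the wrong place. It binds RNA with little sequence preference, and translating ribosomes are known to displace it from coding sequence. Cycloheximide stalls elongating ribosomes and so blocks translation. In CLIP-seq (crosslinking, immunoprecipitation and sequencing), ultraviolet light links a protein to the RNA it touches, an antibody recovers the pair, and the short RNA fragments left on the protein are sequenced and aligned. An RNA contacted at 1 site gives a narrow pile of alignments, and an RNA contacted at many places gives a long stretch of them.

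The regions described here are long stretches of alignments, 96 long tracts among 203383 merged regions. Whether the RNA of these tracts was contacted at many places was not tested. To find them, the unspliced alignments of all 10 CLIP libraries (each spanning at most 60 nt) were counted once per library and position and joined on the same strand wherever they lay at most 50 nt apart. The mitochondrial chromosome and a contig named chrRibo were left out. A long tract is a joined region at least 700 nt wide that held at least 20 alignments over all libraries. The tracts were thus chosen by their width and their pooled number of alignments, so neither of these is a finding. They are numbered T01 to T96 from the most alignments to the fewest. The deposited alignments are on mouse build mm9, for which no genome or annotation was used here, so tracts are named by position and not by gene, and no sequence is shown.

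The cells were v6.5 mouse embryonic stem cells, grown on feeder fibroblasts and freed of these by pre-plating before ultraviolet irradiation at 254 nm and 400 mJ/cm2. The control antibody was IgG, which recovers RNA that sticks without a specific antibody. Each antibody was used on untreated cells (libraries A1, A2 and I) and on cells given cycloheximide (libraries A1 and A2, 100 µg/ml over 2 hours). No group differed in genotype. Whether libraries of a group stem from separate cultures is not stated in the labels. The p-values therefore refer to the spread among these libraries, which may be technical.

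Depth differed widely. Unspliced alignments off the mitochondrial chromosome and chrRibo numbered 95296, 19901 and 87233 in Upf1 untreated A1, A2 and I, and 29871 and 32437 in Upf1 cycloheximide A1 and A2. The IgG libraries held 9604, 7840 and 45420 untreated and 6650 and 18439 with cycloheximide. The most common aligned length was 34 nt in 3 untreated libraries (A1 and I of Upf1, I of IgG). It was 38 nt in the remaining libraries, so every library with the shorter length was untreated. These 3 deep libraries supplied 77.5% of the alignments in the tracts and 64.6% of all alignments. The choice of tracts therefore leaned on untreated cells, and a lower level with cycloheximide is in part favoured by that choice. IgG untreated A1 stood apart: each of its alignments in the tracts was carried by 43.6 lines of its file on average, against 1.09 to 2.37 in the other libraries.

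The tracts were mostly just over the width limit. Their width ran from 711 to 5986 nt with a median of 921 nt. Of the 96, 68 were under 1000 nt, 26 lay between 1000 and 2000 nt and 2 were wider. The narrowest were T80 at 711 nt and T47 at 715 nt, and the widest regions left out were 699 nt (31 alignments) and 698 nt (33 alignments). The tracts held 27 to 2155 alignments (median 80.5, or 8.47 per 100 nt), and the lowest were T96 with 27 and T95 with 28. The limit of 20 alignments left out no region of 700 nt or more. Long tracts were a minority even among well covered regions: 667 of the 763 regions with at least 20 alignments were narrower than 700 nt, with a median width of 365 nt. The 96 tracts lay on 20 chromosomes, 45 on the plus and 51 on the minus strand, with 18 on chromosome 11, 11 on chromosome 5 and 8 on chromosome 7. Together they held 11795 alignments, 3.34% of all, and T01 alone held 18.3% of these.

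Coverage along a tract was broken and uneven. The share of positions under at least 1 alignment ran from 62.7% to 97.6% (median 83.8%), and 0 of 96 tracts were covered throughout. Each tract had 3 to 21 uncovered stretches (median 9), whose longest measured 12 to 50 nt, the upper value being the joining limit. The highest depth was 2.79 to 11.2 times the mean depth of the tract (median 5.18). Unevenness was also measured with the Gini coefficient of depth over positions, which is 0 for level coverage and nears 1 when all depth sits at 1 place. Its median was 0.51, with a range of 0.383 to 0.628. In 321 narrower regions of at least 200 nt with at least as many alignments as the lowest tract the median was 0.510. By this measure depth was spread over the long tracts about as unevenly as over shorter ones. By the other measure the tracts were more peaked: the highest over the mean depth had a median of 4.02 in these 321 regions.

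The extremes show the range of shapes. T59 (chr9:72595106-72595937, plus strand) was the most level, with a Gini coefficient of 0.383, 94.6% of positions covered and a highest depth of 11. T69 (chr4:41061488-41062420, minus strand) followed at 0.386. The most uneven were T53 (chr5:114292566-114293545, minus strand) at 0.628 and T92 (chr10:80364841-80365559, minus strand) at 0.626. T53 reached a depth of 29, 11.2 times its mean, near 93.4% of the way to its 3′ end. T92 had 62.7% of its positions covered, the lowest share of the 96.

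Alignments did not gather at 1 end in most tracts. Positions are given from the 5′ end (0%) to the 3′ end (100%) of the RNA strand. The mean position of a tract's alignments had a median of 48.5%, and 87 of 96 tracts lay between 40% and 60%. Dividing each tract into 5 parts of equal width, the highest depth fell into part 1, at the 5′ end, in 12 tracts, into part 2 in 28, part 3 in 25, part 4 in 18 and part 5 in 13. Parts 1 and 5 thus held the summit less often than the parts between them. The joining rule bears on this count, since a tract ends where alignments thin out. Over the 95 tracts other than T01, the parts held 18.2%, 23.6%, 21.6%, 18.6% and 18.1% of the alignments. The tracts leaning most to the 5′ end were T73 (chr1:74575958-74576689, plus strand), with a mean position of 35.6%, and T42 (chr5:111815539-111816372, plus strand), with 38.8%. Those leaning most to the 3′ end were T53, with 69.3%, and T47 (chr6:122679308-122680022, minus strand), with 66.3% and 51.8% of its alignments in part 5.

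**Figure D1:**
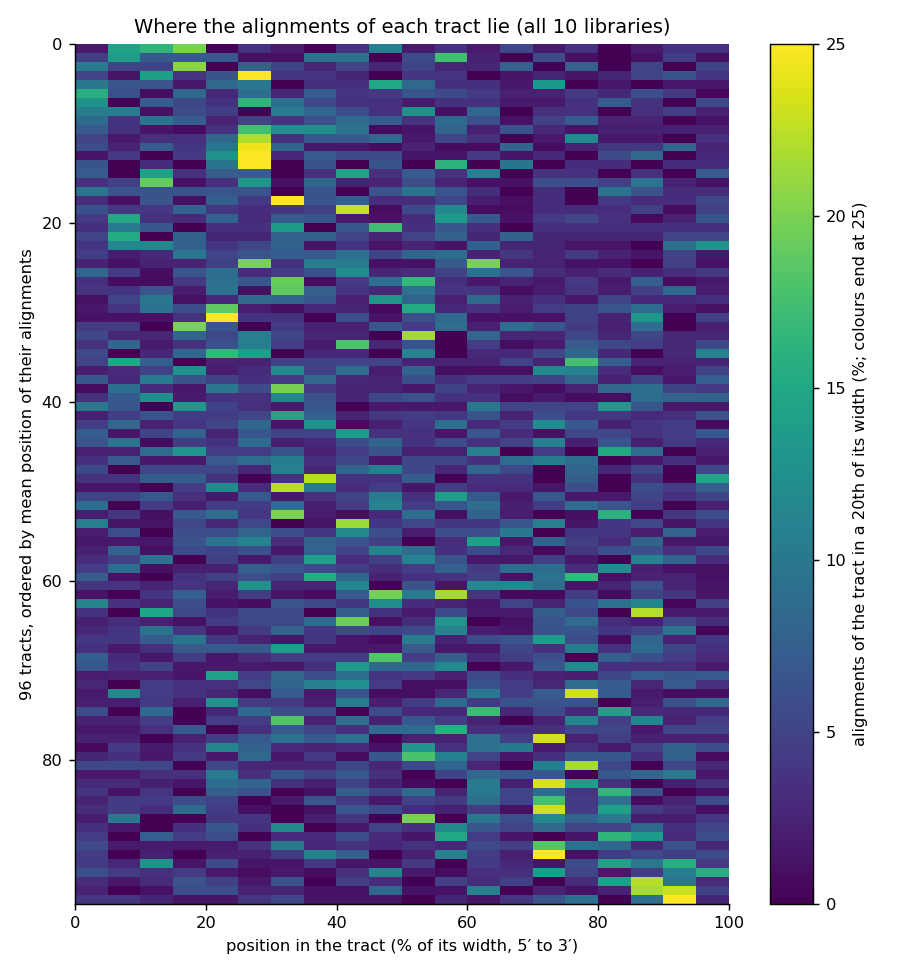
Distribution of alignments along the 96 long tracts, all 10 libraries pooled. Each row is 1 tract, ordered by the mean position of its alignments, the horizontal axis is the position from 5′ to 3′ in percent of the width, and colour is the percent of the tract's alignments in each of 20 bins. Bright bins, where a single bin holds 20% or more, occur at many different positions, and the mean position of 87 tracts is between 40% and 60%.

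The position of alignments along the tracts was compared between the groups. For the 95 tracts other than T01, the mean position was 49.3% ± 0.97 in Upf1 untreated (SD, n = 3), 49.4% ± 0.68 in Upf1 cycloheximide (SD, n = 2), 48.5% ± 0.528 in IgG untreated (SD, n = 3) and 50.2% ± 3.31 in IgG cycloheximide (SD, n = 2). The range over single libraries was 47.9% to 52.6%. The share in part 1 was 17.8% ± 0.692 in Upf1 untreated (SD, n = 3) and 21.5% ± 3.75 in Upf1 cycloheximide (SD, n = 2), a difference within the SD of the latter and above that of the former. Both treated Upf1 libraries, at 18.8% and 24.2%, were above the highest untreated one, at 18.6%. In IgG the lower of the treated libraries, at 19.8%, was likewise just above the highest untreated one, at 19.7%. The group means of the position itself differed by less than the SD of IgG cycloheximide.

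**Figure D2:**
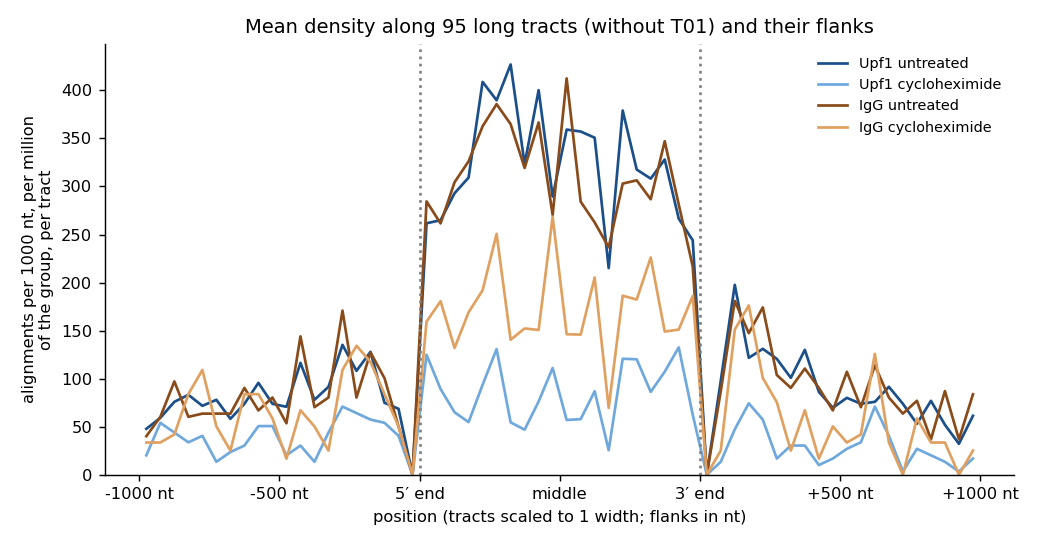
Mean density of alignments along the 95 tracts other than T01 and in 1000 nt on either side, by CLIP group. Tracts are scaled to 1 width and drawn in 20 bins, flanks are drawn in bins of 50 nt, and the bins next to each end are 0 because the joining rule allows no alignment within 50 nt. Both untreated groups lie above both cycloheximide groups along the tract.

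The surroundings of the tracts on the same strand were also counted. The rule ends a tract where alignments thin out, so a denser inside is set by the rule and is given as a description only. A tract held a median of 84.7 alignments per 1000 nt, while the 1000 nt on its 5′ side held a median of 6 (quartiles 2 and 29) and the 1000 nt on its 3′ side a median of 11 (quartiles 1 and 34.2). Of the 96 tracts, 42 had at least 10 alignments on the 5′ side and 55 on the 3′ side. In 13 tracts, such as T07 and T34, 1 of the flanks was denser than the tract itself. The opposite strand held 3 alignments in all, 2 in T45 and 1 in T58, which is 0.025% of the alignments over both strands. In the other 2222 tested regions off the mitochondrial chromosome and chrRibo the opposite strand held 0.058%.

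Splicing gave a partial view of where in a transcript the tracts lay. Alignments that spanned 61 to 20000 nt were taken as spliced, and their joined spans mark stretches with introns. A spliced alignment ended inside 5 tracts. Of the 96 tracts, 29 lay within 2000 nt on the 3′ side of a spliced span, 1 (T87) on the 5′ side, 5 overlapped a span and 61 had none within 2000 nt. The 3′ side thus held 30.2% of the tracts, 16.9% of the other 2222 regions and 23.7% of the 367 others with at least 27 alignments. Spans come from few spliced alignments, so the absence of one near a tract says nothing of its gene.

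Some tracts were neighbours on 1 strand, and may belong to 1 RNA. In all, 12 tracts had another within 5000 nt. The longest run was on the minus strand of chromosome 11, in 5′ to 3′ order T02 (chr11:95823439-95824888), T07 (chr11:95821519-95822880), T18 (chr11:95820715-95821458) and T34 (chr11:95819386-95820348), separated by 558, 60 and 366 nt. T24 and T52 on chromosome 3 lay 68 nt apart, T25 and T47 on chromosome 6 lay 53 nt apart, T41 and T44 on chromosome 10 lay 77 nt apart, and T55 and T56 on chromosome 7 lay 233 nt apart. Such neighbours are not independent members.

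The continuity of a tract was mostly a property of the pool. Within a single library, an unbroken run of at least 700 nt, again allowing gaps of 50 nt, was found in 15 tracts in Upf1 untreated A1, in 7 in Upf1 untreated I and in 2 in IgG untreated I. The other 7 libraries had 0. Pooling the Upf1 untreated libraries gave 53 such tracts, of which 15 spanned the whole tract, the IgG untreated libraries gave 4, and both cycloheximide groups gave 0. With every group drawn down to 25089 alignments, the number in the smallest group, these counts became 0 in Upf1 untreated, 0 in Upf1 cycloheximide, 1 in IgG untreated and 0 in IgG cycloheximide. At that depth the longest run still differed: its median was 11.0% of the tract's width in Upf1 untreated and 9.62% in IgG untreated, and 2.75% in Upf1 cycloheximide and 3.97% in IgG cycloheximide. Longer runs went with the untreated groups of both antibodies, in tracts chosen mainly on untreated libraries.

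The share of a library's unspliced alignments that lay in the tracts was used to compare the CLIP groups. It was 4.54% in Upf1 untreated A1, 3.01% in A2 and 3.19% in I (mean 3.58% ± 0.836, SD, n = 3). In Upf1 cycloheximide it was 1.58% in A1 and 1.47% in A2 (1.53% ± 0.0753, SD, n = 2), so that both treated libraries lay below all untreated ones and the mean was 2.34-fold lower. In IgG untreated it was 1.02% in A1, 4.06% in A2 and 4.48% in I (3.18% ± 1.89, SD, n = 3), and in IgG cycloheximide 2.42% in A1 and 2.88% in A2 (2.65% ± 0.324, SD, n = 2). The IgG groups overlapped, because IgG untreated A1 lay below both treated libraries and A2 and I above them. The untreated libraries of both antibodies overlapped. No test was made on these shares, since the tracts were chosen on the same alignments.

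The shares were also compared within 1 read length. Among Upf1 libraries with the 38 nt length, the untreated one, A2, stood at 3.01% (95% Wilson interval 2.78 to 3.26), and the treated ones at 1.58% (1.44 to 1.73) and 1.47% (1.35 to 1.61). These intervals cover counting error only, there was 1 untreated library, and the tracts had been chosen mainly on the libraries with shorter reads. Alignments under 30 nt made up 47.0% and 48.3% of those in the tracts in Upf1 cycloheximide A1 and A2 and 11.6% to 29.0% in the untreated Upf1 libraries. They made up 49.1% and 45.2% in IgG cycloheximide and 4.08% to 35.2% in IgG untreated. The part of read length and of fragment length in the result was not tested.

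**Figure D3:**
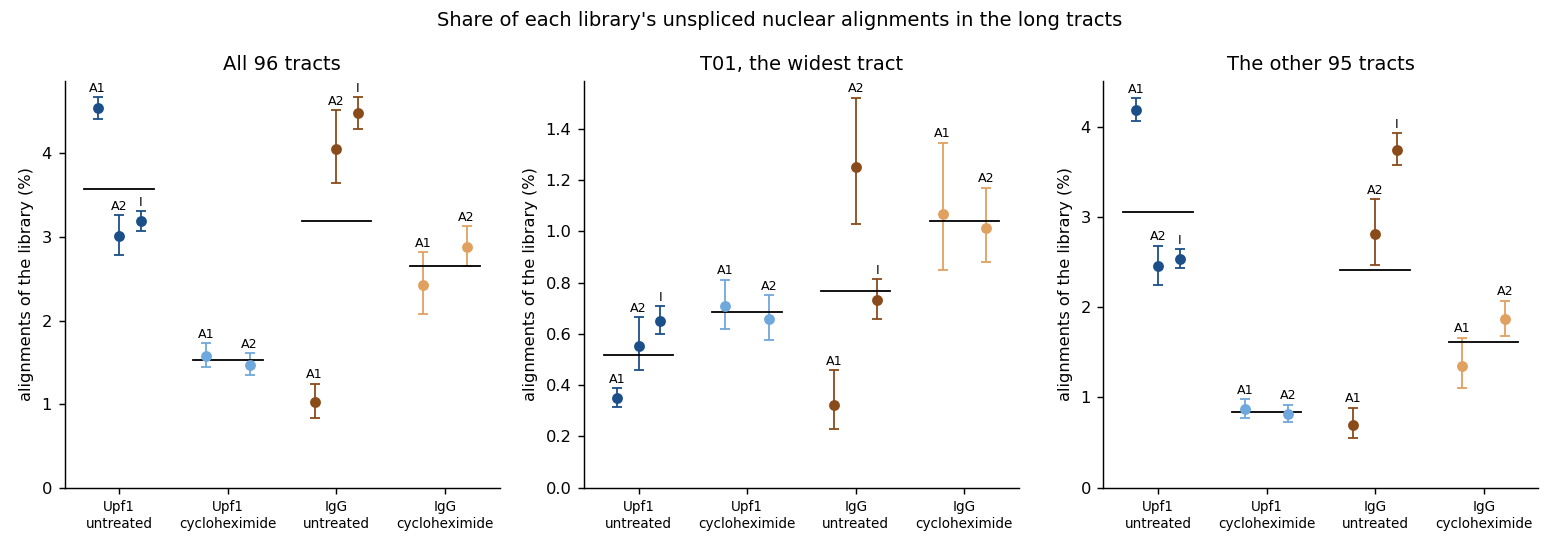
Percent of each library's unspliced alignments (mitochondrial chromosome and chrRibo left out) that lay in all 96 tracts, in T01 and in the other 95. Points are libraries labelled A1, A2 or I, bars are 95% Wilson intervals of counting error, and horizontal lines are group means. In the other 95 tracts the Upf1 cycloheximide libraries are at 0.87% and 0.817%, below all Upf1 untreated libraries, while in T01 they are above them.

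T01 held so many alignments that the shares were also taken without it. Without T01, the share was 3.06% ± 0.978 in Upf1 untreated (SD, n = 3) and 0.844% ± 0.0378 in Upf1 cycloheximide (SD, n = 2), 3.63-fold lower. In IgG it was 2.42% ± 1.56 untreated (SD, n = 3) and 1.61% ± 0.362 with cycloheximide (SD, n = 2), with the groups again overlapping. T01 alone took 0.518% ± 0.154 of the alignments in Upf1 untreated (SD, n = 3) and 0.683% ± 0.0375 in Upf1 cycloheximide (SD, n = 2), 1.32-fold higher. In IgG it took 0.768% ± 0.465 untreated (SD, n = 3) and 1.04% ± 0.0378 with cycloheximide (SD, n = 2). In Upf1, both treated libraries, at 0.71% and 0.657%, were above the highest untreated one, at 0.651%. That margin was within counting error.

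The same comparison was made on tracts built without the Upf1 libraries, a check added after the data had been seen. Applying the rule to the 5 IgG libraries alone gave 7 tracts, each overlapping 1 of the 96. They held 0.484%, 0.533% and 0.518% of the alignments in Upf1 untreated A1, A2 and I, and 0.408% and 0.41% in Upf1 cycloheximide A1 and A2. Without the 3 that lay in T01, the other 4 held 0.294%, 0.216% and 0.197% untreated and 0.0402% and 0.0493% with cycloheximide. The last 2 values rested on 12 and 16 alignments. The treated Upf1 libraries were thus lower in the sum of the 7 and in the 4 outside T01. They were not lower in the 3 that lay in T01, where the rest of these shares was higher in the treated libraries. The IgG pool that chose them leaned on untreated cells as well, with 62864 untreated and 25089 treated alignments, and part of its molecules was also found in another library, as given next. The choice was therefore not free of treatment.

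Libraries shared molecules, taken as an alignment with the same 2 random adapter letters, and so were not fully independent. In the tracts, 85.5% and 87.6% of the molecules of IgG cycloheximide A1 and A2 and 79.1% of those of IgG untreated A2 were also found in another library. The share was 45.3% and 50.5% in Upf1 cycloheximide A1 and A2, 42.5% in Upf1 untreated A2 and 2.15% to 7.52% in the other 4 libraries. Outside the tracts it was 29.6% and 35.2% in Upf1 cycloheximide A1 and A2. Which library a shared molecule came from was not tested.

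T01 (chr19:5796009-5801994, minus strand) was the widest tract and held 2155 alignments, 333, 110 and 568 in Upf1 untreated A1, A2 and I, and 212 and 213 in Upf1 cycloheximide A1 and A2. The IgG libraries held 31, 98 and 332 of them untreated and 71 and 187 with cycloheximide. All 10 libraries thus had T01. Coverage reached 96.4% of its positions, with a highest depth of 106. Its 5 parts held 26.2%, 20.6%, 14.7%, 22.3% and 16.2% of the alignments, with 21.6% in the middle part over the other 95 tracts together. Of those 95, 22 had a smaller share in the middle than T01. The 1000 nt on its 5′ side held 231 more alignments and the 1000 nt on its 3′ side 1, against 360 per 1000 nt in T01 itself.

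The profile of T01 was then compared between the groups. In bins of 100 nt from the 5′ end, the bin starting at 2200 nt was the highest in Upf1 untreated (49 alignments, level with the bin at 4500 nt), in Upf1 cycloheximide (35) and in IgG untreated (31). In IgG cycloheximide the bin at 4500 nt was highest (26), and the bin at 2200 nt held 19. Of the 10 highest bins of each group, 4 were common to all 4 groups and 15 appeared in at least 1. The 10 highest of the 60 bins held 35.3% of the alignments in Upf1 untreated, 44.7% in IgG untreated, 53.6% in Upf1 cycloheximide and 60.1% in IgG cycloheximide. In the same order these groups held 1011, 461, 425 and 258 alignments in T01. Fewer alignments make such shares larger, and molecules shared between libraries make their profiles alike. The part of depth in these shares was not tested.

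**Figure D4:**
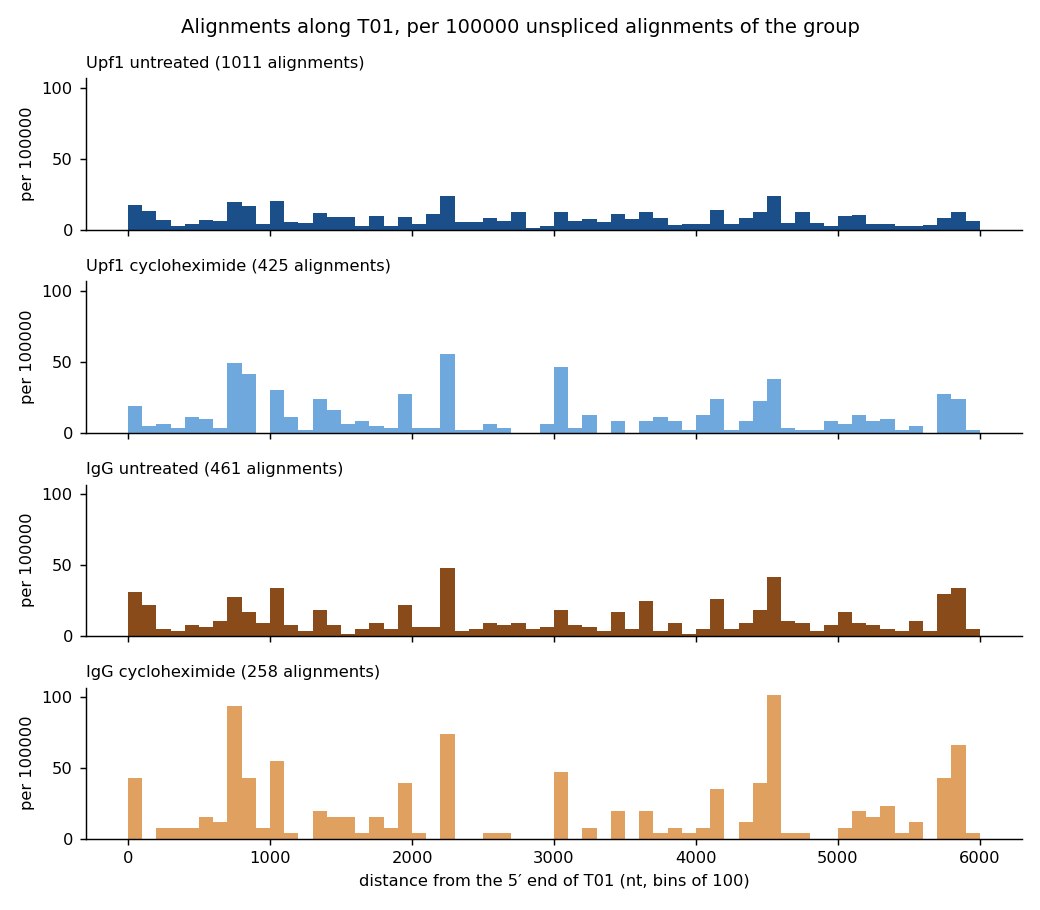
Alignments along T01 in bins of 100 nt, per 100000 unspliced alignments of each CLIP group, against the distance from its 5′ end. The bin starting at 2200 nt is the highest or level with the highest in 3 groups, with 49, 35 and 31 alignments, and no bin is empty in the untreated groups while 6 are empty in Upf1 cycloheximide and 15 in IgG cycloheximide.

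The next 4 tracts by number of alignments were lower with cycloheximide in both antibodies, by rates pooled over each group. T02 held 204, 40 and 99 alignments in Upf1 untreated A1, A2 and I and 15 and 19 in Upf1 cycloheximide A1 and A2. That was 167 of every 100000 unspliced alignments untreated and 54.0 with cycloheximide, and in IgG 196 and 129. T03 (chr5:92481418-92484075, minus strand) held 105, 8 and 118 in Upf1 untreated and 17 and 13 in Upf1 cycloheximide, or 113 and 47.7 of every 100000, and 127 and 42.9 in IgG. T04 (chr4:133559254-133561081, minus strand) held 123, 12 and 85 in Upf1 untreated and 5 and 5 in Upf1 cycloheximide, or 107 and 15.9 of every 100000, and 144 and 58.5 in IgG. These rates are descriptions of the pooled libraries, weighted to the deepest ones.

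T05 (chr8:124405064-124406962, minus strand) had the steepest difference of these. It held 151, 19 and 69 alignments in Upf1 untreated A1, A2 and I and 2 and 4 in Upf1 cycloheximide A1 and A2, or 117 and 9.53 of every 100000. In IgG it held 1, 9 and 62 untreated and 0 and 6 with cycloheximide, or 110 and 23.4. In coverage T02 and T05 were dense, at 97.6% and 93.8% of positions. T02 had its highest depth, 90, at 23.0% of its width, and T05 its highest, 43, at 30.8%.

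Single tracts were tested with limma-voom across all 2357 regions that held at least 10 alignments and were present in at least 3 libraries, with Benjamini-Hochberg adjustment over all of them and a threshold of 0.05. All 96 tracts passed that filter. Differences are in log2, after TMM scaling (trimmed mean of M values), which aims to set the bulk of regions level between libraries. The tested regions were not fully level after it: their median for cycloheximide in Upf1 was -0.65. A difference of 0 is therefore not the level of the typical region. Since the cycloheximide comparisons share the model's estimate of spread over all 10 libraries, the IgG libraries also bear on the Upf1 result.

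Between Upf1 and IgG, with treatment as a covariate, limma-voom called 0 of 96 tracts higher and 0 lower, against 0% and 0% of all tested regions. Without adjustment, 3 of 96 tracts were higher and 0 lower at p under 0.05, against 42 and 24 of all 2357 tested regions. This count moved with the processing. Without molecules found in more than 1 library, 25 were higher and 0 lower, against 76 and 9 of 1772 regions. Without IgG untreated I these counts were 22 and 0, against 105 and 31 of 2357. Without IgG untreated A1 they were 0 and 0, against 63 and 40. With library totals they were 0 and 1, against 0 and 495. Limma with a trended prior also called 0 tracts after adjustment. The median difference of the tracts was 0.60 (all tested regions 0.09) with TMM scaling, and -0.32 (all regions -0.90) with library totals. Its sign thus depended on scaling, while it was above the median of all regions under both. It was 0.10 without IgG untreated A1, 0.96 without IgG untreated I and 1.00 without IgG cycloheximide A2. The lowest p-values belonged to T30 (chr5:135421175-135422036, minus strand), with a difference of 1.65 ± 0.77 (SE), T18 with 1.81 ± 0.85 and T16 (chr19:44378205-44379356, plus strand) with 1.74 ± 0.83. Each had an adjusted p of 1.00 by limma. In the other direction T92 stood at -0.69, T73 at -0.70 and T45 (chr7:133635303-133636258, minus strand) at -0.55. T01 had a difference of 0.49 ± 0.68 (SE, adjusted p = 1.00, limma), which was -0.47 with library totals. By this test no tract was called different between Upf1 and control IgG, which does not show that they were alike.

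Between cycloheximide and untreated in the Upf1 libraries, 6 of 96 tracts were called lower and 0 higher. Of all tested regions 0.339% were called lower and 2.38% higher. Regions with few alignments could hardly be called lower, so a closer background is the 391 other regions with at least 27 alignments. Of these 391, 0.512% were called lower, against 6.25% of the tracts. They share only the lowest number of alignments with the tracts and include regions on the mitochondrial chromosome and chrRibo. Off these, the 321 of at least 200 nt held a median of 37 alignments, against 80.5 in the tracts. The part of depth in the higher share of the tracts was not tested. At an unadjusted p under 0.05 by limma, 29 of 96 tracts were lower and 0 higher, against 196 and 191 of all 2357 tested regions. The median difference was -1.68 in the tracts, -0.65 in all tested regions and -0.99 in the 391 others, and 89 of 96 tracts were below 0. Beside these shares stands the fact that the tracts were chosen mainly on untreated Upf1 alignments.

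The 6 called tracts held almost no alignments with cycloheximide in Upf1. T33 (chr10:21718652-21719612, plus strand) had 37, 5 and 39 alignments in Upf1 untreated A1, A2 and I, and 0 in both treated libraries. In IgG it had 0, 3 and 19 untreated and 0 and 3 with cycloheximide, so IgG also had few. T33 was at least 8.28-fold lower with cycloheximide in Upf1, taking 3 counts over the treated group as the floor, and had a log2 difference of -4.35 ± 1.03 (SE, adjusted p = 0.0164, limma). T45 had 55, 4 and 11 alignments in Upf1 untreated and 0 in both treated libraries, at least 7.16-fold lower (adjusted p = 0.0236, limma). Most of those in T45 came from A1, whereas those in T33 came in near equal number from A1 and I.

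T66 (chr11:120668396-120669116, minus strand) had 37, 4 and 9 alignments in Upf1 untreated A1, A2 and I and 0 with cycloheximide, at least 5.11-fold lower (adjusted p = 0.0332, limma). T69 had 33, 3 and 13 and then 0, at least 5.01-fold lower (adjusted p = 0.0332, limma), and in IgG it was present only in untreated I, with 9. T73 had 18, 5 and 16 and then 0, at least 3.99-fold lower (adjusted p = 0.0331, limma), while its IgG libraries had 0, 4 and 9 untreated and 0 and 3 treated. T46 (chr4:131887844-131888763, minus strand) had 37, 7 and 23 untreated and 1 and 0 treated, a ratio of 20.6 whose 95% counting interval ran from 3.57 to 824 (adjusted p = 0.0360, limma). Every untreated Upf1 library thus held each of these tracts, and their treated counts were 0 or 1. Between 82.5% and 93.9% of their positions were covered. T73 had the mean position nearest the 5′ end of all 96 tracts, and T69 the second lowest Gini coefficient.

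These calls were not stable. Without Upf1 untreated A1, 0 tracts and 0 of all regions were called lower, and 0 of each also without Upf1 untreated I. Without IgG untreated A1 there were 19 tracts, among 74 of all 2357 regions called lower. Without IgG untreated I there were 14 tracts, among 54 of 2357. Without Upf1 cycloheximide A1 or A2, which leaves 1 treated Upf1 library, the median difference of the tracts was -1.50 and -1.73. With the 38 nt libraries alone, Upf1 untreated has 1 library, and 61 of the 96 tracts passed the filter. The median difference of these 61 was -0.87, with 0.30 in the 478 regions tested there. Those sets differ from the ones of the main fit, so the medians are not directly comparable.

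**Figure D5:**
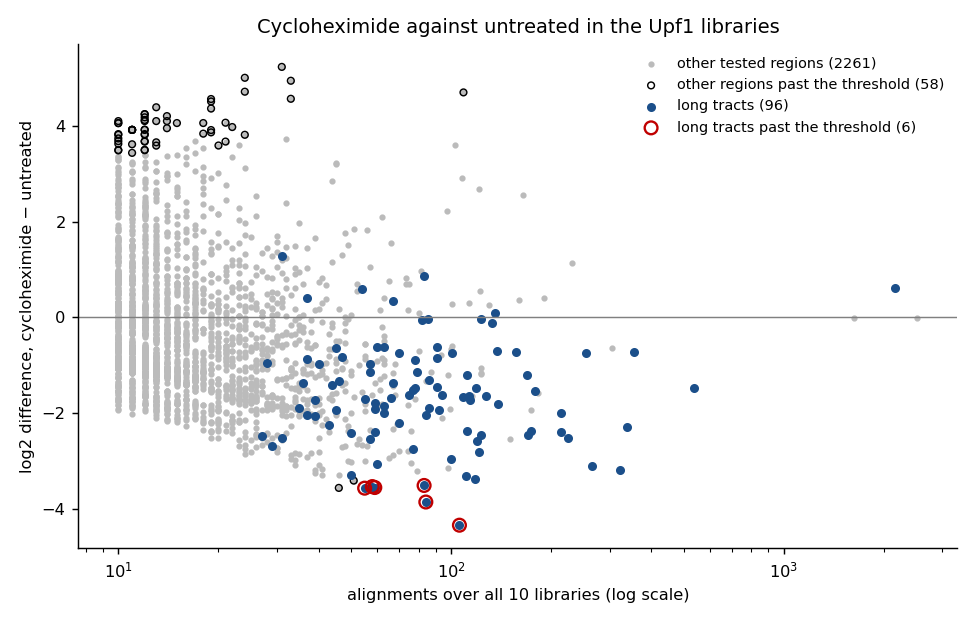
Log2 difference between cycloheximide and untreated Upf1 libraries for the 2357 tested regions, against the number of alignments over all 10 libraries on a log scale. Blue points are the 96 long tracts, and red rings are the 6 called lower. Of the tracts, 89 are below 0, and regions with about 10 alignments do not reach the low values that well covered ones do.

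Libraries were also counted without a model, on the same alignments as the fit, so this is no separate support. The choice of tracts on mainly untreated alignments favours a lower rate with cycloheximide in this count. In 61 of 96 tracts both Upf1 cycloheximide libraries had a lower rate than all 3 untreated ones, against 23.3% of all tested regions and 35.5% of the 391 others with at least 27 alignments. In 2 tracts, T01 and T47, both were higher, against 9.55% of all tested regions and 4.86% of the 391 others. In 15 tracts neither Upf1 cycloheximide library held an alignment, and in 11 neither IgG cycloheximide library did. Every tract was present in the untreated group of both antibodies, which the choice on mainly untreated alignments favours. This count was not taken over all tested regions, so it has no background. T47 had 17, 6 and 17 alignments in Upf1 untreated A1, A2 and I and 10 and 12 in Upf1 cycloheximide, which is 17.6, 29.7 and 19.2 against 33.1 and 36.6 of every 100000. By limma its difference was 0.87 ± 1.35 (SE, adjusted p = 0.729), which did not pass. The other tracts with the lowest p among those above 0 were T93 (chr11:97488724-97489518, minus strand), with 1.29 ± 1.24 (SE, adjusted p = 0.566, limma), and T01, with 0.61 ± 1.04 (SE, adjusted p = 0.758, limma).

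Between cycloheximide and untreated in the IgG libraries, limma-voom called 0 tracts higher and 0 lower, against 0% and 0.0424% of all tested regions, and limma with a trended prior also called 0. At p under 0.05 before adjustment, 0 were higher and 1 lower, against 117 and 39 of all 2357 tested regions. The median difference was -0.50 in the tracts and -0.22 in all regions, with 69 of 96 tracts below 0. The median of the tracts turned to 0.13 without IgG untreated I and to 0.39 without IgG cycloheximide A1, and was -1.35 without IgG untreated A1 and -1.16 without IgG cycloheximide A2. Both treated IgG libraries had a lower rate than all untreated ones in 6 tracts and a higher one in 1, T47, against 2.46% and 11.2% of all tested regions. Of the 391 others with at least 27 alignments, 9.21% were lower in this way and 9.72% higher, so neither count of tracts exceeded that background. IgG untreated A1, with 98 alignments in the tracts and none in 60 of them, held most tracts back from the former count. The lowest p-values below 0 were those of T59, with a difference of -1.93 ± 0.95 (SE), T12 (chr6:87793078-87794095, minus strand) with -2.20 ± 1.16 and T05 with -2.16 ± 1.20. Above 0 they were those of T48 (chr14:27475392-27476313, plus strand) with 1.85 ± 1.18, T75 (chr15:38418845-38419795, minus strand) with 1.77 ± 1.15 and T47 with 1.51 ± 1.24. T59 had 1 and 18 alignments in IgG untreated A2 and I and 0 in the other IgG libraries.

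Whether the cycloheximide difference itself differed between the antibodies was tested with an interaction term. It called 0 tracts higher and 0 lower, against 0% and 0% of all regions, and limma with a trended prior also called 0. Before adjustment, 0 were higher and 4 lower at p under 0.05, against 33 and 35 of all 2357 tested regions. The median was -1.17 in the tracts and -0.45 in all regions. It was -0.23 without IgG untreated A1, -0.53 without IgG cycloheximide A2, -1.92 without IgG untreated I and -1.93 without IgG cycloheximide A1. T46 had the lowest p, with a log2 difference of -3.78 ± 1.56 (SE, adjusted p = 0.985, limma). T33 followed with -3.30 ± 1.52 and T31 (chr18:38003404-38004463, minus strand) with -3.42 ± 1.65. T31 had 60, 7 and 19 alignments in Upf1 untreated A1, A2 and I and 2 and 0 in Upf1 cycloheximide, and 0, 4 and 13 and then 1 and 5 in IgG. In the other direction stood T93 at 1.50 ± 1.51, T87 (chr12:110786257-110787131, plus strand) at 1.01 ± 1.52 and T18 at 0.82 ± 1.78. The lower level of the 6 called tracts was therefore not shown to be particular to Upf1.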

How the data were processed

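The deposited files list CLIP-seq alignments on mouse build mm9, 1 per line. Bowtie 0.12.6, TopHat 1.4.0 and Cufflinks 1.3.0 are listed, without their roles, in the processing notes of the submitters. The deposited score column held 255 in every line and was not used as a measurement. The other deposited column, a name made of a serial number, a copy number and 2 letters, gave the letters of the random adapter bases that, per the labels, served to filter PCR copies. Files differed in that filtering, so each distinct alignment was counted once per library. Rates of every 100000 include the mitochondrial chromosome and chrRibo, and shares leave them out.

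Members, lists and tests were chosen with earlier results of these data known. Named tracts are the 5 with the most alignments, the 3 widest, up to 6 called in each direction of each test (where none passed, the 3 with the lowest p) and the extremes of shape. Tallies are not a count table, so limma-voom was used (limma 3.58.1, R 4.3.3; Python 3.11.15, pandas 2.3.3, numpy 2.4.6, scipy 1.17.1, matplotlib 3.10.9), with TMM trims of 30% and 5%. The TMM reference was the deepest library, as in the earlier analysis of these data. The more usual reference, the library with an upper quartile nearest the mean, had been run first, and both outcomes were known when the choice was made. The method was tested on simulated data. Library labels were not used as a block, since the labels do not say that they pair libraries. Over 13 pairs of libraries with the same label, correlations of deviations from the group means ran from -0.170 to 0.423 (median 0.112). Over 24 pairs with other labels they ran from -0.509 to 0.279 (median -0.046). In groups of 2 libraries the deviations mirror each other, so these correlations cannot settle whether labels pair libraries. Genes, marker lists and sequence were not analysed here. The mRNA-seq and ribosome footprinting samples were not analysed here.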

Additional observations from a re-analysis of the deposited data

How the results depend on the processing

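The number of tracts called lower with cycloheximide in Upf1, 6 by limma-voom, depended on the processing. The 6 were among 8 of all 2357 regions called lower. With the upper-quartile TMM reference, an alternative added after the data had been seen, it was 7 among 15 of 2357. It was 10 among 43 with library totals, 5 among 15 with the replicate block and 3 among 3 with trended limma. Without molecules found in more than 1 library it was 2 among 3 of 1772 regions. With no filter on regions and with every line counted, 0 tracts and 0 regions were called lower. Leaving out 1 untreated library at a time gave 0 to 19 tracts, among 0 to 74 regions. Whether library labels pair the samples was not settled by their correlations, and under the block T69 had an adjusted p of 0.0513 (limma). The other 3 tests called 0 tracts in every alternative run. Their medians turned in places: for Upf1 against IgG it was -0.32 with library totals, and for cycloheximide in IgG it was 0.77 with every line counted, 0.88 with the longer reads and -1.35 to 0.39 with 1 library left out. For the difference between the antibodies it was -2.25 with no filter, -2.75 with every line counted and -1.93 to -0.23 with 1 library left out. For Upf1 against IgG it was 0.10 to 1.00 with 1 library left out. The causes were not tested.

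Among single tracts, 22 values reversed and none of these had passed. With every line counted, the Upf1 against IgG differences were -0.25 in T01 and 0.46 in T73, and the differences between the antibodies were -1.03 in T18, -1.13 in T87 and -0.13 in T93. With library totals T01 stood at -0.47 for Upf1 against IgG. With no filter, cycloheximide in Upf1 gave -0.43 in T01 and -0.18 in T47, and the differences between the antibodies were -0.17 in T18 and -0.18 in T87. Without molecules found in more than 1 library, cycloheximide in IgG gave -0.92 in T01 and -0.74 in T47, and T45 stood at 0.12 for Upf1 against IgG. With trended limma T45 stood at 0.078, and with the longer reads alone T18 stood at -0.32 for the difference between the antibodies. With 1 library left out, ranges were -0.42 to 1.11 for T01 with cycloheximide in IgG, -1.02 to 0.42 for T45 and -1.03 to 0.37 for T73 in Upf1 against IgG, and -1.10 to 2.73 for T18 and -0.33 to 1.76 for T87 in the difference between the antibodies.

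The number of long tracts followed the joining rule and the depth. It was 27 with gaps of up to 25 nt, 397 with gaps of up to 100 nt, 238 at a width of at least 500 nt, 28 at 1000 nt, 2 with libraries drawn to equal depth, 61 from the Upf1 libraries alone, 7 from the IgG libraries alone (added after the data had been seen), and 33 to 96 with 1 library left out. The values of 33, 48 and 63 came without untreated A1 of Upf1, untreated I of Upf1 and untreated I of IgG. The median covered share was 94.0% with gaps of up to 25 nt and 64.7% with gaps of up to 100 nt, and the median Gini coefficient was 0.59 with gaps of up to 100 nt and 0.57 at equal depth. The mean share in the tracts of Upf1 cycloheximide was 1.70% with every line counted and 1.21% without shared molecules. In the 2 tracts of equal depth, the mean share was 0.227% in Upf1 untreated, 0.238% in Upf1 cycloheximide, 0.272% in IgG untreated and 0.370% in IgG cycloheximide, so the order of the Upf1 groups was not kept there. In the 7 tracts of the IgG libraries these means were 0.511%, 0.409%, 0.689% and 0.708%. In tracts of at least 1000 nt they were 2.11% in Upf1 untreated, 1.08% in Upf1 cycloheximide and 1.81% in IgG cycloheximide, and without the 5 tracts with the most alignments 2.58%, 0.715% and 1.38%. IgG cycloheximide A1 held 161 alignments over all tracts, and what could be detected at that depth was not tested.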
